A study of Mus musculus with 24 samples.

Results

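The genes described here encode the enzymes of phase II drug metabolism in mouse hepatocytes. They were chosen by gene symbol alone, as the cytosolic and microsomal glutathione S-transferases (Gst and Mgst), the UDP-glucuronosyltransferases (Ugt) and the sulfotransferases (Sult). The rule took 67 of the 55421 genes listed, of which 25 were Gst or Mgst, 21 were Ugt and 21 were Sult. RNA was sequenced from hepatocytes of 24 C57BL/6J mice, described as male in the study's methods, each isolated by 2-step perfusion of the liver. Vehicle or eRapa, rapamycin in an enteric coating mixed into the food at 42 ppm, was started at 4 months of age on normal diet (ND). At 18 months the ND + veh mice (n = 8) stayed on normal diet with vehicle. The HFD + veh mice (n = 7) were moved to vehicle with a fatty diet (60% of calories), and the HFD + eRapa mice (n = 9) to the same fatty diet with eRapa, for 9 weeks. All 3 groups share strain, age, isolation method and sequencing batch. No group was kept on normal diet with eRapa to the end, so the 9 weeks of eRapa on the fatty diet and the months of eRapa on normal diet before it cannot be told apart.

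Phase II enzymes attach a polar group to a lipophilic compound so that it can leave the cell. Gst enzymes add glutathione to electrophiles such as lipid peroxidation products, Ugt enzymes add glucuronic acid to bilirubin, steroids and drugs, and Sult enzymes add sulfate to steroids, bile acids, phenols and amines. The liver holds most of this capacity, and many of the genes are known targets of the nuclear receptors CAR, PXR and PPARA, of the aryl hydrocarbon receptor and of the oxidative stress factor NRF2.

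Library depth was 17.7 to 25.9 M counts assigned to genes. The libraries were labelled as hepatocytes, and the 9 hepatocyte markers measured together took 59515 to 177037 CPM (counts per 1000000 after TMM scaling of library sizes) in every library. Markers of other liver cells were present and moved with the groups. Macrophage markers summed to 52.4 to 1569 CPM in ND + veh, 198 to 5886 CPM in HFD + veh and 19.4 to 1230 CPM in HFD + eRapa. Markers were called at an edgeR adjusted p under 0.05. Against HFD + veh, HFD + eRapa was lower in 10 of 12 macrophage, 10 of 10 endothelial and 10 of 10 stellate cell markers. It was also lower in 2 of 3 lymphocyte, 2 of 3 neutrophil and 1 of 3 cholangiocyte markers tested, beside 21.1% of all genes. Against ND + veh it was lower in 5 of 10 stellate cell and 1 of 10 endothelial markers, beside 6.54% of all genes. Of 3 cholangiocyte markers tested, 1 was higher there, beside 6.93% of all genes. For any member, a change within hepatocytes and a change in which cells were recovered cannot be told apart in such bulk RNA. Library ND + veh replicate 4 stood apart from its group in several members. Its values are given separately below.

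Per unit of transcript length (FPKM), Gst was the most abundant class, and its summed level overlapped between the groups. The mean was 10451 ± 2986 FPKM in ND + veh (SD, n = 8), 10285 ± 3374 FPKM in HFD + veh (n = 7) and 9211 ± 737 FPKM in HFD + eRapa (n = 9). The medians were 9194, 8609 and 9269 FPKM in the same order. The make-up of that sum differed: Mgst1, the membrane-bound glutathione transferase of the endoplasmic reticulum, held 32.8% of it in ND + veh, 35.9% in HFD + veh and 50.5% in HFD + eRapa. Gstm1, an abundant cytosolic mu-class enzyme, held 19.7% of it in ND + veh and 6.29% in HFD + eRapa. Ugt genes summed to 2168 ± 309 FPKM in ND + veh, 2187 ± 359 FPKM in HFD + veh and 1974 ± 191 FPKM in HFD + eRapa, shared among many members, of which Ugt2b5 held 19.9% in ND + veh and 21.8% in HFD + veh. Sult genes summed to 541 ± 91.6 FPKM, 409 ± 94.6 FPKM and 704 ± 115 FPKM. In that class Sult2a8 held 45.6% in ND + veh, 25.7% in HFD + veh and 59.2% in HFD + eRapa, and Sult1a1 held 42.3%, 57.6% and 32.4%.

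**Figure D1:**
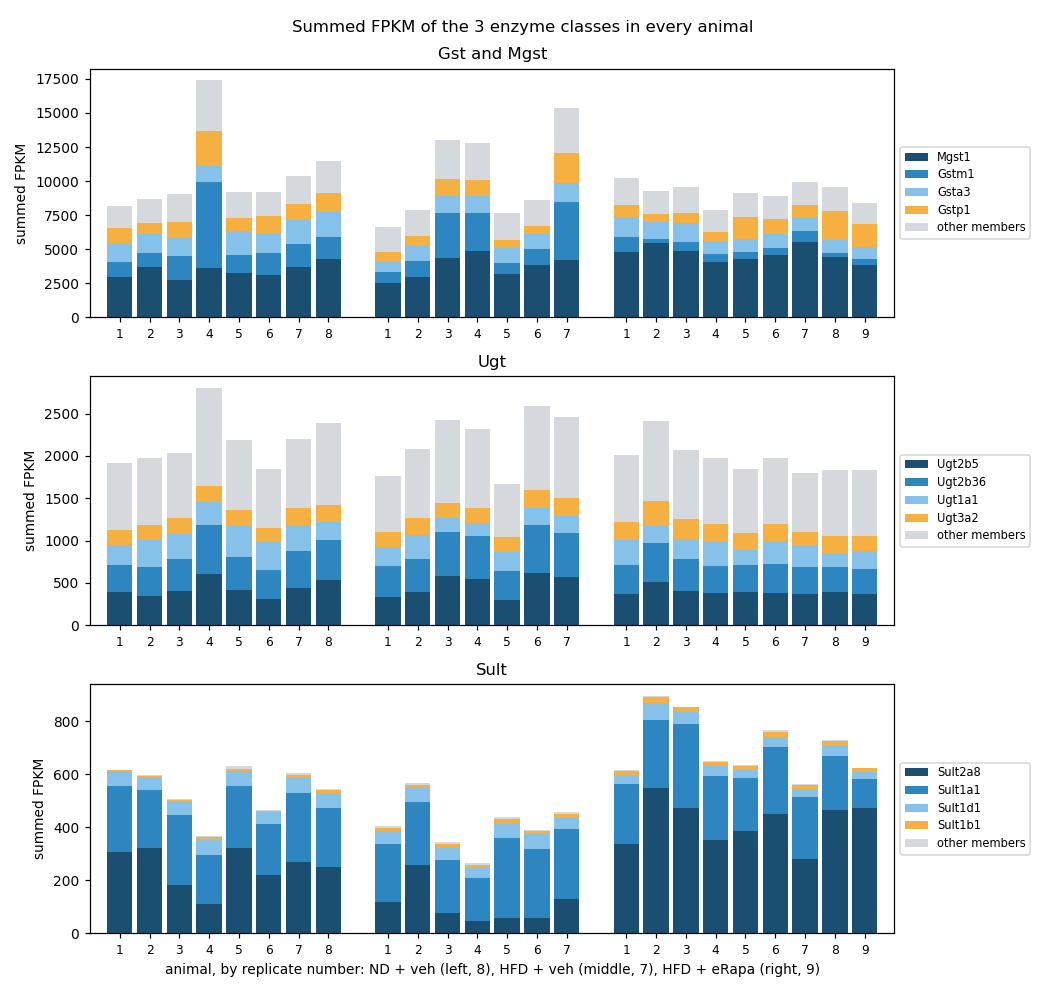
Summed FPKM of each enzyme class in every animal, stacked by the 4 members with the highest mean FPKM and all other members, with 1 bar per animal ordered by group. In the top panel ND + veh animal 4 stands at 17390 FPKM. In the bottom panel the darkest segment, Sult2a8, has its lowest group mean in HFD + veh (105 FPKM) and its highest in HFD + eRapa (417 FPKM). The ND + veh animals, at 110 to 322 FPKM of Sult2a8, overlap both groups.

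Of the 67 members, 46 had enough counts to be tested, 22 Gst, 16 Ugt and 8 Sult, and calls were made at an adjusted p under 0.05 in edgeR's quasi-likelihood test over all 13847 genes tested. Between HFD + veh and ND + veh, 10 of the 46 were called, 7 higher and 3 lower. That is 21.7% of them, against 25.9% of all genes tested, so the members changed with the fatty diet about as often as the rest of the transcriptome. Between HFD + eRapa and HFD + veh, 17 were called, 5 higher and 12 lower, which is 37.0% against 32% of all genes. Between HFD + eRapa and ND + veh, 17 were called, 8 higher and 9 lower, or 37.0% against 13.5% of all genes. The last 2 comparisons share the HFD + eRapa libraries, and the first 2 share HFD + veh. By direction, the background was 16.0% higher and 9.86% lower with diet, 10.9% and 21.1% with eRapa on the fatty diet, and 6.93% and 6.54% between HFD + eRapa and ND + veh. Complete separation of the animals of both groups was rarer. It was found for 2 of the 46 members with diet, both higher, against 2.44% of all genes. With eRapa on the fatty diet it was found for 7, 1 higher and 6 lower, against 2.59% of all genes, or 1.29% in each direction. Between HFD + eRapa and ND + veh it was found for 5, 3 higher and 2 lower, against 3.37% of all genes (2.14% higher and 1.23% lower).

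The classes differed in how their members fell. Among the 22 Gst genes tested, 3 rose and 1 fell with the fatty diet, 1 rose and 8 fell with eRapa on that diet, and 3 rose and 8 fell between HFD + eRapa and ND + veh. Their median log2 fold changes in these 3 comparisons were 0.04, -0.47 and -0.55, beside 0.05, -0.04 and -0.03 over all genes. Among the 16 Ugt genes the counts were 1 higher and 1 lower, then 2 higher and 3 lower, then 1 higher and 0 lower. Among the 8 Sult genes they were 3 higher and 1 lower, then 2 higher and 1 lower, then 4 higher and 1 lower. Across all 3 comparisons 22 members were called in none.

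**Figure D2:**
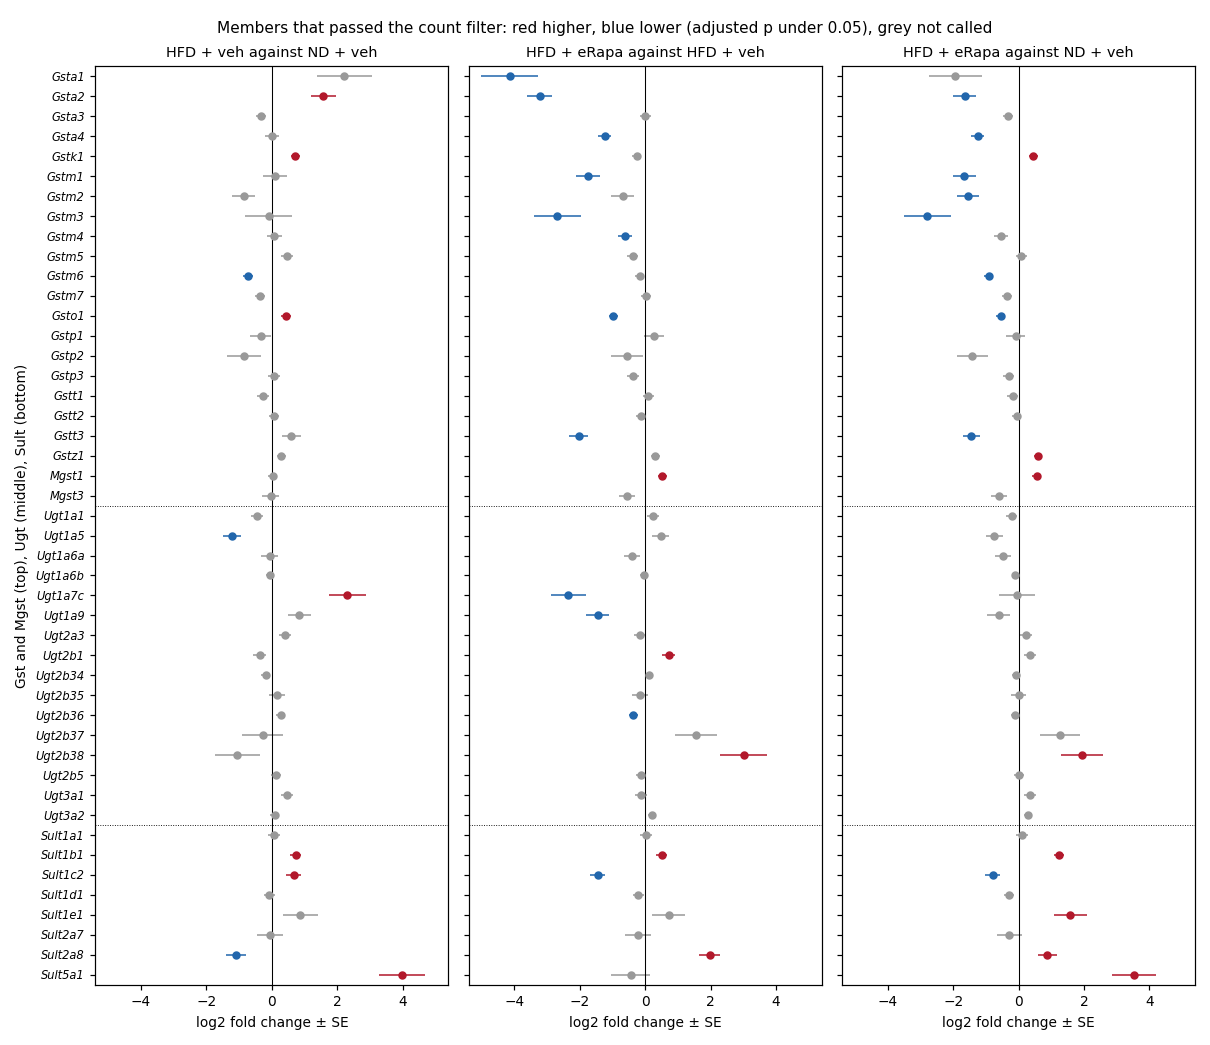
Log2 fold change ± SE of the 46 members tested, by class from top to bottom, in the 3 comparisons from left to right, with red for higher, blue for lower and grey for members that were not called at an edgeR adjusted p under 0.05. The middle panel holds 12 blue and 5 red points, and the lowest point in it is Gsta1 at -4.15.

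Between HFD + eRapa and HFD + veh the alpha-class genes Gsta1 and Gsta2 had the largest log2 fold changes of the 46 members. They encode cytosolic transferases that act on lipid hydroperoxides and reactive aldehydes and are textbook NRF2 targets. Gsta2 measured 7.83 to 62.3 CPM in ND + veh (median 23.3), 38.4 to 135 CPM in HFD + veh (median 68.6) and 2.79 to 13.2 CPM in HFD + eRapa (median 7.31). Every HFD + eRapa animal lay below every HFD + veh animal, while both overlapped ND + veh. HFD + veh did so only through ND + veh animal 4, at 62.3 CPM, the others of ND + veh reaching at most 28.1 CPM. Gsta2 rose 2.99-fold with the fatty diet (log2 fold change 1.58 ± 0.37 SE, edgeR adjusted p = 0.00527). Without ND + veh animal 4, Gsta2 rose by 1.90 on the log2 scale with the fatty diet (edgeR adjusted p = 0.000585). With eRapa on that diet it fell 9.36-fold (-3.23 ± 0.38 on the log2 scale, edgeR adjusted p = 8.66e-06). Against ND + veh it was also lower, at -1.65 ± 0.35 (edgeR adjusted p = 0.0027).

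Gsta1 measured 0.0568 to 32.4 CPM in ND + veh (median 2.84), 6.17 to 47.5 CPM in HFD + veh (median 35.0) and 0.211 to 4.80 CPM in HFD + eRapa (median 1.11). All HFD + eRapa values again lay below all HFD + veh values. Between them the difference was -4.15 ± 0.88 on the log2 scale (edgeR adjusted p = 0.00172). Between HFD + veh and ND + veh it was 2.22 ± 0.84 (edgeR adjusted p = 0.0534), and the ND + veh maximum of 32.4 CPM was animal 4, the other 7 reaching at most 5.29 CPM. Without that animal the diet comparison gave 3.59 (edgeR adjusted p = 0.0029).

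Reads of these 2 genes are hard to tell apart. Gsta1 (chr9:78230656-78242684, plus strand) and Gsta2 (chr9:78331018-78355788, minus strand) lie close together in GRCm38, and their coding sequences are 98.0% identical, with 13 differing bases among 666 aligned. Of all 75-base stretches of Gsta1 exons, 84.7% also occur in another gene, against 36.6% for Gsta2. The third copy, Gm3776, measured 0.284 to 31.5, 5.82 to 57.6 and 0.474 to 3.22 CPM in ND + veh, HFD + veh and HFD + eRapa, and gave -4.14 ± 0.79 between HFD + eRapa and HFD + veh (edgeR adjusted p = 0.000831). The division of reads between Gsta1 and Gm3776 is therefore uncertain. The stretch from coding base 359 to 508 is shown because it holds 6 of the differing bases, in capitals, and is among the places where reads of Gsta1 and Gsta2 differ (GENCODE M21 transcripts, GRCm38).
Gsta1: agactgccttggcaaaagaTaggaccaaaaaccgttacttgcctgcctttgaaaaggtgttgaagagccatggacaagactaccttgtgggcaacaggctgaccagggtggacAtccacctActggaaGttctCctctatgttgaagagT
Gsta2: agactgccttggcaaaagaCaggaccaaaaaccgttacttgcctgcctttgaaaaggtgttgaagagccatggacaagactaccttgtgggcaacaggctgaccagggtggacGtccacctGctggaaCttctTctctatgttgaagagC

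The likeness runs on into the promoters. The 120 bases before the annotated start of each gene are shown because the genes moved together, with capitals for bases that differ or have no partner in the alignment (RefSeq, GRCm38.p6). Of 115 aligned bases, 105 were identical (91.3%). The Gsta1 stretch is chr9:78230549-78230668 on the plus strand and the Gsta2 stretch is chr9:78347146-78347265 on the minus strand. The RefSeq starts used here differ from the ends of the gene spans given above, which are from GENCODE M21. The Gsta2 stretch lies inside its GENCODE span, and the Gsta1 stretch runs past the start of its own.
Gsta1: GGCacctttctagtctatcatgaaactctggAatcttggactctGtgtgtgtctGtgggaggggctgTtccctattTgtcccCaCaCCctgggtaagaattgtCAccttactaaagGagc
Gsta2: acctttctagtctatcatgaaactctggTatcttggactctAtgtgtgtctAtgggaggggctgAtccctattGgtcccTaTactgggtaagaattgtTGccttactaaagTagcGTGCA

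The core of the antioxidant response element, TGACNNNGC, was searched on both strands in windows from 250 bases before to 50 bases after the start. It occurred in 12.4% of all 32851 promoter sequences, and in 4 of the 71 sequences that belong to 59 members. Those 4 were of Gsta3, Gstm5, Gstm7 and Mgst1. The core was not in the windows of Gsta1 and Gsta2. Sequence further upstream was not searched, so the search cannot tell whether these genes have such an element there.

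The other alpha-class members behaved differently from this pair. Gsta4, whose enzyme conjugates the lipid peroxidation product 4-hydroxynonenal, measured 43.4 to 144 CPM in ND + veh (median 87.6), 58.7 to 127 CPM in HFD + veh (median 80.8) and 20.1 to 47.0 CPM in HFD + eRapa (median 35.5). The diet comparison was not called (-0.01 ± 0.21, edgeR adjusted p = 0.988). The level was lower with eRapa, by -1.24 ± 0.21 against HFD + veh (edgeR adjusted p = 0.000247) and -1.25 ± 0.20 against ND + veh (edgeR adjusted p = 0.000159). No HFD + eRapa animal reached the lowest HFD + veh animal. Gsta3 lies on another chromosome (chr1:21240589-21265661) and was, per length, the most abundant alpha-class gene at a mean of 1265 FPKM. It measured 968 to 2007, 936 to 1644 and 820 to 1668 CPM in ND + veh, HFD + veh and HFD + eRapa, and was called in no comparison.

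**Figure D3:**
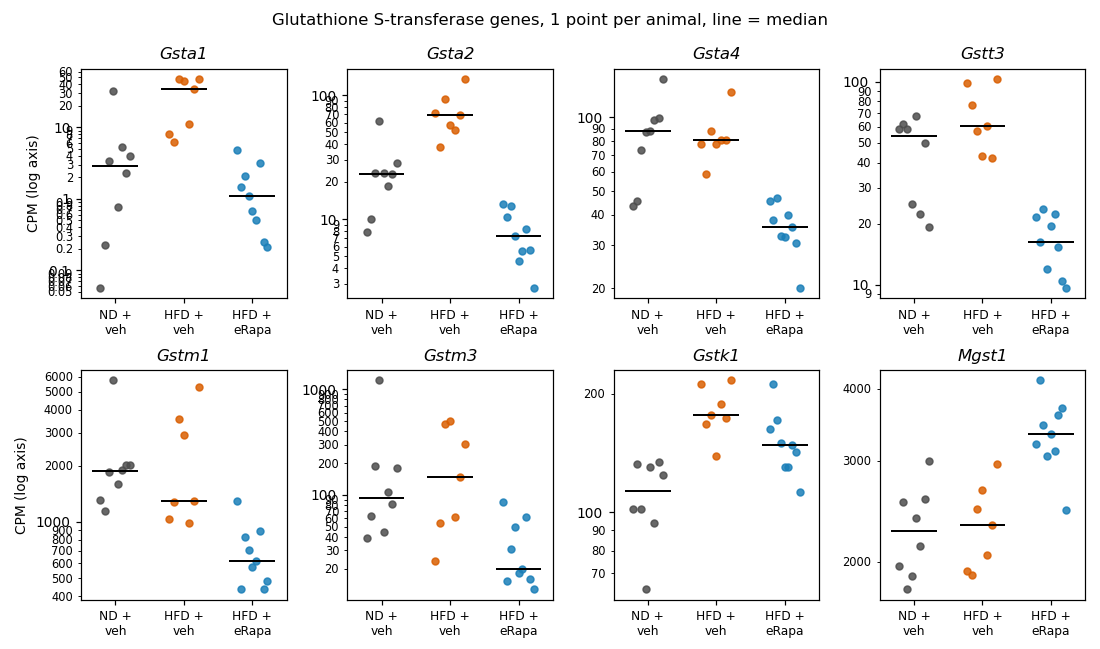
CPM (log axis) of 8 Gst and Mgst genes in each animal, by group, with a line at the group median. For Gsta1, Gsta2, Gsta4 and Gstt3 all HFD + eRapa points lie below all HFD + veh points. For Gsta1, Gsta2, Gstm1 and Gstm3 the highest ND + veh point is animal 4.

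The mu-class genes form a cluster on chromosome 3 (Gstm1 at chr3:108012255-108017973), and 7 of its members were tested. Gstm1 and Gstm3 spread widely within groups. Gstm1 measured 1141 to 5737 CPM in ND + veh (median 1875), 988 to 5304 CPM in HFD + veh (median 1291) and 435 to 1290 CPM in HFD + eRapa (median 620). The highest HFD + eRapa animal overlapped the lower part of both other groups. The HFD + eRapa level was lower than HFD + veh by -1.75 ± 0.37 on the log2 scale (edgeR adjusted p = 0.00168) and lower than ND + veh by -1.66 ± 0.36 (edgeR adjusted p = 0.0028).

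Gstm3 measured 39.5 to 1210 CPM in ND + veh (median 94.6), 23.6 to 501 CPM in HFD + veh (median 148) and 12.9 to 86.5 CPM in HFD + eRapa (median 20.2). The groups overlapped. The difference was -2.69 ± 0.73 against HFD + veh (edgeR adjusted p = 0.00796) and -2.79 ± 0.72 against ND + veh (edgeR adjusted p = 0.0105). The 1210 CPM was ND + veh animal 4, and without it the second value became -1.55 (edgeR adjusted p = 0.0784) and was no longer called.

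Gstm6 was the one mu-class gene called between the diets. It measured 67.9 to 115 CPM in ND + veh (median 97.0), 36.9 to 74.7 CPM in HFD + veh (median 56.9) and 30.2 to 62.1 CPM in HFD + eRapa (median 51.1). The HFD + veh level was lower by -0.74 ± 0.15 (edgeR adjusted p = 0.00223), and all HFD + eRapa animals lay below all ND + veh animals (-0.91 ± 0.14, edgeR adjusted p = 0.000111). The comparison of HFD + eRapa with HFD + veh was not called (-0.17 ± 0.15, edgeR adjusted p = 0.395). Gstm2 went from 52.3 to 211 CPM in ND + veh to 11.3 to 103 CPM in HFD + veh and 19.8 to 45.0 CPM in HFD + eRapa. It was called lower between HFD + eRapa and ND + veh only (-1.55 ± 0.33, edgeR adjusted p = 0.0027), and these 2 groups did not overlap. Gstm4 was lower with eRapa on the fatty diet (-0.62 ± 0.22, edgeR adjusted p = 0.0337), and Gstm5 and Gstm7 were called in no comparison.

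The theta-class genes sit side by side on chromosome 10, and one of the 3 tested differed from its neighbours. Gstt3 (chr10:75774115-75781414) measured 19.2 to 67.8 CPM in ND + veh (median 54.2), 41.9 to 103 CPM in HFD + veh (median 60.3) and 9.64 to 23.5 CPM in HFD + eRapa (median 16.2). All HFD + eRapa animals lay below all HFD + veh animals. Its level with eRapa was lower by -2.04 ± 0.28 against HFD + veh (edgeR adjusted p = 3.71e-05) and by -1.44 ± 0.27 against ND + veh (edgeR adjusted p = 0.000727).

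Gstt1 (chr10:75783813-75798584), whose gene product handles small halogenated compounds, gave 0.10 ± 0.17 in the first of these comparisons (edgeR adjusted p = 0.705), and Gstt2 gave -0.13 ± 0.15 (edgeR adjusted p = 0.523). Within each library the ratio of Gstt3 to Gstt1 CPM was 0.0555 to 0.224 in ND + veh, 0.225 to 0.357 in HFD + veh and 0.0422 to 0.0837 in HFD + eRapa. The HFD + veh and HFD + eRapa ratios did not overlap. The ND + veh ratios all lay below the lowest HFD + veh ratio, by the small margin between 0.2241 and 0.2250. The ND + veh ratios also overlapped the HFD + eRapa range. For Gstt3 itself, the fatty diet gave a change of 0.60 ± 0.28 on the log2 scale (edgeR adjusted p = 0.117). That missed the threshold for a call, and the CPM of these groups overlapped.

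Among the remaining classes of Gst, Gsto1, an omega-class thioltransferase, followed the direction of Gsta2. It measured 42.7 to 69.8 CPM in ND + veh (median 54.9), 57.1 to 106 CPM in HFD + veh (median 64.2) and 26.1 to 50.1 CPM in HFD + eRapa (median 35.9). The groups on the fatty diet did not overlap, and the difference with eRapa was -0.97 ± 0.14 (edgeR adjusted p = 7.31e-05). The rise with diet of 0.43 ± 0.15 (edgeR adjusted p = 0.0358) was lost in 16 of 37 alternative settings, where the adjusted p ranged from 0.0253 to 0.13.

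A further set of members were higher with the diet, the drug or both. Gstk1, the mitochondrial and peroxisomal transferase, measured 63.8 to 134 CPM in ND + veh (median 113), 139 to 216 CPM in HFD + veh (median 176) and 113 to 213 CPM in HFD + eRapa (median 149). All HFD + veh animals lay above all ND + veh animals (0.72 ± 0.15, edgeR adjusted p = 0.00191), and the difference with eRapa was not called (-0.27 ± 0.14, edgeR adjusted p = 0.154). Gstz1, the maleylacetoacetate isomerase of tyrosine breakdown, was higher in all HFD + eRapa animals (608 to 922 CPM) than in all ND + veh animals (330 to 577 CPM), at 0.59 ± 0.13 (edgeR adjusted p = 0.00271). Mgst1 measured 1790 to 2994 CPM in ND + veh, 1898 to 2954 CPM in HFD + veh and 2457 to 4139 CPM in HFD + eRapa. It was higher with eRapa by 0.52 ± 0.13 against HFD + veh (edgeR adjusted p = 0.00465) and by 0.55 ± 0.12 against ND + veh (edgeR adjusted p = 0.00381), with overlapping groups.

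Gstp1, the pi-class transferase that is male-predominant in mouse liver, was not called in any comparison, at 430 to 1036, 287 to 1206 and 322 to 1252 CPM in ND + veh, HFD + veh and HFD + eRapa. Its close copy Gstp2 shares 98.1% of the coding sequence, and the authors' files divide the reads of the pair differently: Gstp2 had 277 FPKM on average but at most 15.0 CPM. The 9 Gst genes called in no comparison were Gsta3, Gstm5, Gstm7, Gstp1, Gstp2, Gstp3, Gstt1, Gstt2 and Mgst3.

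In each comparison a smaller share of the Ugt genes was called than of the Gst or Sult genes, a difference that was not tested. The Ugt1a genes share one locus on chromosome 1, where each has its own first exon and the remaining exons are common, so that 50.3% to 82.7% of the exon bases of the 9 listed genes are overlapped by another gene. Counting by gene therefore rests mainly on first exons. Ugt1a1 (chr1:88211959-88218997), the bilirubin transferase, measured 130 to 246 CPM in ND + veh (median 178), 76.1 to 175 CPM in HFD + veh (median 138) and 101 to 211 CPM in HFD + eRapa (median 157). These ranges overlapped, and the diet comparison gave -0.46 ± 0.18 (edgeR adjusted p = 0.0638), within a range of 0.0216 to 0.21 over the alternatives.

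Ugt1a5 was lower in HFD + veh, where it measured 12.1 to 25.2 CPM (median 15.8) against 17.1 to 75.8 CPM in ND + veh (median 37.8). Its log2 fold change was -1.21 ± 0.28 (edgeR adjusted p = 0.00435), with 12.7 to 36.9 CPM in HFD + eRapa. Ugt1a9, which acts on bulky phenols, went the other way. It measured 13.5 to 102 CPM in ND + veh (median 33.3), 26.2 to 118 CPM in HFD + veh (median 80.6) and 14.3 to 42.3 CPM in HFD + eRapa (median 28.4). The groups overlapped, and the highest ND + veh value was again animal 4, the rest reaching at most 44.6 CPM.

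The eRapa comparison on the fatty diet gave -1.45 ± 0.36 for Ugt1a9 (edgeR adjusted p = 0.00439). The diet comparison gave 0.84 ± 0.36 (edgeR adjusted p = 0.0879), and 1.17 without animal 4 (edgeR adjusted p = 0.0147). Relative to Ugt1a1 in the same library, Ugt1a9 CPM had a median ratio of 0.172 in ND + veh, 0.675 in HFD + veh and 0.177 in HFD + eRapa. The ranges were 0.0906 to 0.789, 0.169 to 1.09 and 0.106 to 0.252. Ugt1a7c was called higher with the fatty diet and lower with eRapa on it, but its counts were low (at most 8.01 CPM) and its mean FPKM was 11.8 in ND + veh and 10.8 in HFD + veh.

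**Figure D4:**
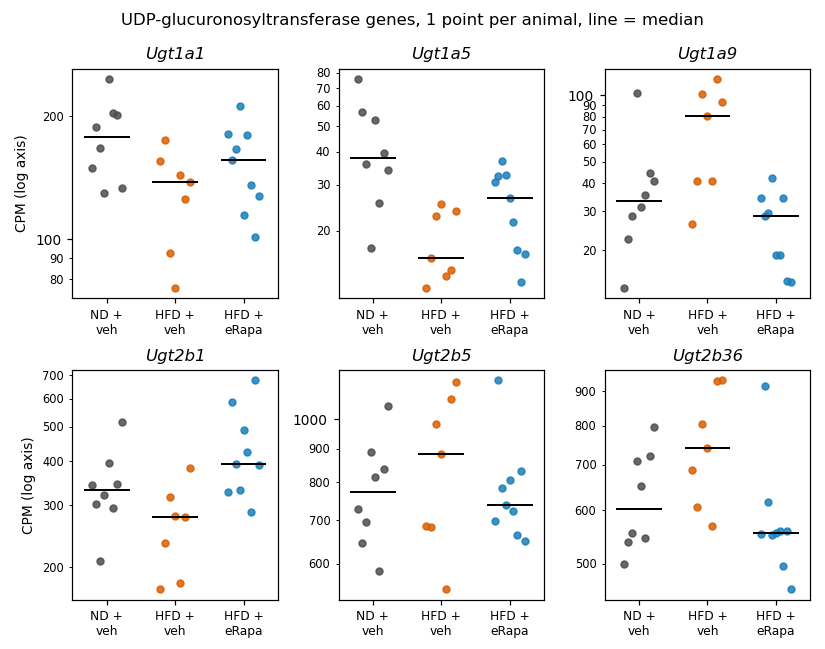
CPM (log axis) of 6 Ugt genes in each animal, by group, with a line at the group median. The 3 groups overlap in every panel, and in the Ugt2b5 and Ugt2b36 panels 1 HFD + eRapa animal, replicate 2, stands above its group at 1146 and 915 CPM.

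The Ugt2b genes of chromosome 5, whose enzymes glucuronidate steroids and drugs, made up much of the class. Ugt2b5, per length the most abundant Ugt at a mean of 432, 476 and 395 FPKM in ND + veh, HFD + veh and HFD + eRapa, was called in no comparison, with medians of 772, 883 and 737 CPM in the same order. Ugt2b1 was higher with eRapa on the fatty diet. It measured 173 to 383 CPM in HFD + veh (median 278) and 288 to 677 CPM in HFD + eRapa (median 392), with 208 to 515 CPM in ND + veh. The groups overlapped, with a difference of 0.72 ± 0.20 (edgeR adjusted p = 0.00839). Ugt2b36, at medians of 603, 741 and 554 CPM in the 3 groups, was called lower by -0.37 ± 0.14 (edgeR adjusted p = 0.0489), but not in 28 of 37 alternatives.

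Ugt2b38 was called higher with eRapa from the counts, at 0.0926 to 1.62 CPM in HFD + veh against 1.03 to 17.2 CPM in HFD + eRapa (3.01 ± 0.71, edgeR adjusted p = 0.00359). The deposited FPKM gave -0.06 for the same comparison. Its coding sequence is 97.0% identical to that of Ugt2b5, which is far more abundant, and the direction for Ugt2b38 is uncertain. The 10 Ugt genes called in no comparison were Ugt1a1, Ugt1a6a, Ugt1a6b, Ugt2a3, Ugt2b34, Ugt2b35, Ugt2b37, Ugt2b5, Ugt3a1 and Ugt3a2.

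Among the Sult genes, Sult2a8, a liver sulfotransferase of bile acids, carried the change of the class. It measured 141 to 533 CPM in ND + veh (median 435), 76.1 to 408 CPM in HFD + veh (median 124) and 468 to 1114 CPM in HFD + eRapa (median 726). All HFD + eRapa animals lay above all HFD + veh animals and 8 of 9 lay above every ND + veh animal. It fell with the fatty diet (-1.10 ± 0.31, edgeR adjusted p = 0.0152) and was 3.93-fold higher with eRapa on that diet (1.97 ± 0.32, edgeR adjusted p = 0.000174). The excess over ND + veh (0.88 ± 0.29, edgeR adjusted p = 0.0463) was lost in 21 of 37 alternatives. The lowest ND + veh value was animal 4, the other 7 lying at or above 272 CPM.

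Sult1b1, a sulfotransferase of phenols and thyroid hormones, rose in both steps. It measured 8.23 to 15.4 CPM in ND + veh (median 13.5), 16.7 to 24.3 CPM in HFD + veh (median 19.7) and 18.3 to 44.8 CPM in HFD + eRapa (median 27.8). Neither fatty diet group overlapped ND + veh. The changes were 0.73 ± 0.17 with diet (edgeR adjusted p = 0.00451), 0.50 ± 0.16 with eRapa on the fatty diet (edgeR adjusted p = 0.0225) and 1.23 ± 0.16 between HFD + eRapa and ND + veh (edgeR adjusted p = 1.48e-05). The middle one was lost in 7 of 37 alternatives.

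Sult1c2 was low in all groups and moved in the opposite direction to Sult1b1 with the drug. It measured 2.41 to 5.15 CPM in ND + veh (median 3.76), 3.66 to 8.56 CPM in HFD + veh (median 4.90) and 1.21 to 3.63 CPM in HFD + eRapa (median 2.03). The 2 fatty diet groups did not overlap, by the small margin between 3.63 and 3.66 CPM, with a difference of -1.45 on the log2 scale ± 0.23 (edgeR adjusted p = 0.000147). The rise with diet of 0.66 ± 0.23 (edgeR adjusted p = 0.0399) was lost in 17 of 37 alternatives.

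**Figure D5:**
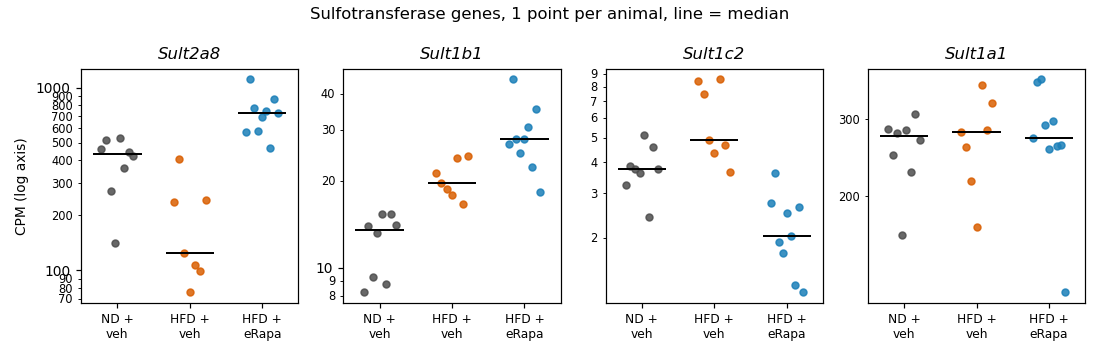
CPM (log axis) of 4 Sult genes in each animal, by group, with a line at the group median. Sult2a8 is higher in all HFD + eRapa animals than in all HFD + veh animals, Sult1c2 is lower in all of them, and Sult1a1 has group medians of 274, 281 and 272 CPM.

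Sult5a1 had the largest positive log2 fold changes of the class and the least certain values. It measured 0 to 1.14 CPM in ND + veh, 0.83 to 16.3 CPM in HFD + veh and 1.75 to 9.90 CPM in HFD + eRapa. All HFD + eRapa animals lay above all ND + veh animals. The fitted changes were 3.98 ± 0.70 with diet (edgeR adjusted p = 0.00057) and 3.53 ± 0.67 between HFD + eRapa and ND + veh (edgeR adjusted p = 0.000876). Its FPKM is listed at 0 in all 24 libraries, although up to 311 reads were counted. The gene (chr8:123140192-123158315) lies within the span of the read-through gene Gm20388 (chr8:119910841-124345722), where 45 of 45 genes with a mean of 100 or more counts have FPKM 0, against 51 of 9541 in the whole table.

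Sult1e1, the oestrogen sulfotransferase, was near the limit of detection at 0.0381 to 1.20 CPM in ND + veh, 0.308 to 0.97 CPM in HFD + veh and 0.256 to 1.67 CPM in HFD + eRapa. It was called higher between HFD + eRapa and ND + veh (1.58 ± 0.51, edgeR adjusted p = 0.0393), not in 15 of 36 alternatives. The 1.20 CPM was ND + veh animal 4, and without it the value was 2.49 (edgeR adjusted p = 0.000556). The phenol sulfotransferase Sult1a1 and the catecholamine sulfotransferase Sult1d1 were called in no comparison, with Sult1d1 medians of 127, 122 and 95.6 CPM in ND + veh, HFD + veh and HFD + eRapa, and Sult2a7 was not called either.

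The 21 members that were not tested were 3 Gst, 5 Ugt and 13 Sult genes. Their highest value in any library was 1.18 CPM, for Ugt1a10. Among them were Sult2a1, the hydroxysteroid sulfotransferase that is female-predominant in mouse liver, at no more than 6 counts in a library, and Sult3a1 at no more than 9 counts. For 8 of them, Sult1c1, Sult2a4, Sult2a5, Sult2a6, Sult3a2, Sult6b2, Ugt2a1 and Ugt2a2, no count was recorded in any library. Reads of Ugt2a1 and Ugt2a2 could not be assigned to either alone where they overlap, since 98.8% and 94.5% of their exon bases are overlapped by another gene.

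Genes that supply the conjugating groups were not called with diet. Over all genes tested, 16.0% were higher and 9.86% lower with diet, and 10.9% and 21.1% with eRapa on the fatty diet. Between HFD + eRapa and ND + veh the shares were 6.93% and 6.54%. Of 3 genes for UDP-glucuronate, none was called with diet, and Ugdh, which makes UDP-glucuronate (-0.64 ± 0.20, edgeR adjusted p = 0.0163), and Ugp2, which makes UDP-glucose (-0.27 ± 0.10, edgeR adjusted p = 0.0415), were lower with eRapa on the fatty diet. Of 6 genes around the sulfate donor PAPS, 1 was called in 1 comparison, Papss1, lower in HFD + eRapa than in ND + veh (-0.42 ± 0.10, edgeR adjusted p = 0.00456). Of the 4 glutathione genes Gclc, Gclm, Gss and Gsr, 0 were called in the 3 comparisons.

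Of 11 receptors and regulators, 0 were called with diet, against 25.9% of all genes. With eRapa on the fatty diet 4 were higher, against 10.9% of all genes. The 4 in this eRapa comparison were Ppara (1.06 ± 0.24, edgeR adjusted p = 0.00236), Ahr (0.69 ± 0.20, edgeR adjusted p = 0.0114), Rxra and Nr1i2. The NRF2 gene Nfe2l2 gave -0.05 ± 0.15 there (edgeR adjusted p = 0.843), and the CAR gene Nr1i3 gave 0.74 ± 0.34 (edgeR adjusted p = 0.103). Of 4 conjugate exporters, Abcg2 was called higher with eRapa, by 0.66 ± 0.19 against HFD + veh (edgeR adjusted p = 0.012) and 0.84 ± 0.19 against ND + veh (edgeR adjusted p = 0.00344).

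Other enzymes that conjugate or deconjugate were also read in the same fit. Of 10 methyl-, acetyl- and amino acid transferases, 5 were higher and 1 lower with the fatty diet, against 16.0% and 9.86% of all genes. The highest was Nnmt, the nicotinamide methyltransferase, at 1.90 ± 0.45 (edgeR adjusted p = 0.00576), and the thiopurine methyltransferase Tpmt rose by 0.99 ± 0.10 (edgeR adjusted p = 1.91e-06). With eRapa on the fatty diet Glyat, the glycine N-acyltransferase, was higher at 0.44 ± 0.14 (edgeR adjusted p = 0.0164). Of 7 tested genes that cleave conjugates or process mercapturates, 2 were higher with diet, against 16.0% of all genes. With eRapa on the fatty diet 1 was higher and 2 lower, against 10.9% and 21.1%. Gusb, the glucuronidase, was 0.76 ± 0.19 with diet (edgeR adjusted p = 0.00633) and -1.06 ± 0.18 with eRapa (edgeR adjusted p = 0.000298).

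Because several conjugation genes are sex-dependent in mouse liver, lists of such genes were read beside them. Of 9 male-biased genes, 5 were lower with the fatty diet and 7 were higher with eRapa on it, against 9.86% and 10.9% of all genes. Slco1a1, an organic anion uptake transporter, measured 95.7 to 565 CPM in ND + veh, 1.98 to 26.4 CPM in HFD + veh and 199 to 732 CPM in HFD + eRapa. Its HFD + veh animals lay below all others (-5.41 ± 0.58 with diet, edgeR adjusted p = 2.52e-06, and 5.80 ± 0.59 with eRapa, edgeR adjusted p = 2.06e-06). Hsd3b5 was at most 0.264 CPM in HFD + veh, against 1.76 to 128 CPM in ND + veh and 6.25 to 301 CPM in HFD + eRapa, and Elovl3 gave -2.54 ± 0.46 and 2.59 ± 0.46 (edgeR adjusted p = 8e-04 and 0.000461). Of 5 female-biased genes tested, 2 were higher with diet and 4 lower with eRapa on that diet, against 16.0% and 21.1% of all genes. With eRapa Cyp2a4 was at -4.64 ± 1.1 (edgeR adjusted p = 0.00362) and Hao2 at -3.73 ± 0.61 (edgeR adjusted p = 0.00021). These lists were chosen with earlier results of the same libraries known.

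The decline of most non-hepatocyte markers in HFD + eRapa against HFD + veh ran beside the members' changes. When the mean score of the immune markers was added to the fit as a covariate, 9 of the 46 members remained called between HFD + eRapa and HFD + veh or were newly called (19.6%, against 6.88% of all genes). With the score of endothelial, stellate and cholangiocyte markers, 7 were called (15.2%, against 5.43% of all genes). Those 7 were called without a covariate too and with the immune score as well: Gsta2, Gsta4, Gsto1, Gstt3 and Sult1c2, lower, and Mgst1 and Sult2a8, higher. In these fits Gsta2 was at -2.74 and -2.68, Gstt3 at -2.44 and -2.56, and Sult2a8 at 1.70 and 1.51.

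The calls lost in both fits were those of Gsta1, Gstm1, Gstm3, Gstm4, Ugt1a7c, Ugt1a9, Ugt2b36, Ugt2b38 and Sult1b1, and that of Ugt2b1 was lost with the second score. With the first and second score, Gsta1 was at -2.49 and -2.16 (edgeR adjusted p = 0.0664 and 0.0934), Gstm1 at -1.25 and -1.12 (edgeR adjusted p = 0.0709 and 0.112) and Gstm3 at -0.99 and -0.50 (edgeR adjusted p = 0.515 and 0.751). In the diet comparison 8 members were called with the first score, against 8.87% of all genes, and 11 with the second, against 16.8%. Of these, Gstm2 and Gstt3 were new in both fits, so 6 and 9 of the original 10 stayed called. Between HFD + eRapa and ND + veh 19 were called with the first score, against 19.3%, and 17 with the second, against 21.9%, of which 3 were new in each. The part of the other cell types in these members was not tested further.

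HFD + veh animals 1 and 2 had macrophage markers at 198 and 199 CPM, within the HFD + eRapa range. In these 2 animals Gsta2 measured 71.6 and 38.4 CPM, Gstt3 98.6 and 76.5 CPM, and Gsto1 87.3 and 64.2 CPM, above all HFD + eRapa animals. Gsta1, whose call was lost in both fits, measured 8.09 and 6.17 CPM, also above all HFD + eRapa animals (at most 4.80 CPM). These were the lowest Gsta1 values of HFD + veh, whose remaining animals measured 11.2 to 47.5 CPM. Sult2a8 measured 238 and 408 CPM in these animals, below all HFD + eRapa animals (at least 468 CPM). In the rest of HFD + veh it measured 76.1 to 244 CPM. Ugt1a9, at 26.2 and 41.2 CPM, lay within the HFD + eRapa range (14.3 to 42.3 CPM). Gstm3, at 23.6 and 54.6 CPM, lay within the HFD + eRapa range in the same animals. Gstm1, at 1040 and 1279 CPM, did so only through HFD + eRapa animal 1 (1290 CPM), the others reaching at most 889 CPM. These values come from 2 animals and were not tested.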

How the data were processed

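Poly(A) RNA of 24 hepatocyte samples, grouped by the diet and drug given in the labels, was sequenced by the authors in 1 batch. The authors aligned reads with STAR to mm10 with Gencode annotation, used SAMtools 1.1.0, and deposited whole-number counts per gene from HTSeq 0.11.2 and FPKM per gene from Cufflinks, a value per length and per 1000000 reads. Whether counting used strand is not given in the sources used here. HTSeq leaves out reads that fit more than 1 gene, while Cufflinks divides them, so the values of close copies and of overlapping genes can differ between the files.

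Counts were tested in edgeR 4.0.16 (R 4.3.3; filterByExpr by group, TMM scaling, glmQLFit with robust = TRUE, glmQLFTest) with all 24 libraries and no covariate, with Benjamini-Hochberg adjustment over 13847 genes and calls at an adjusted p under 0.05. CPM are TMM-scaled. Alternatives used DESeq2 1.42.0, limma 3.58.1 (voom, and log2(FPKM + 0.1) or log2(FPKM + 1)), other filters, marker scores as covariates, a replicate block and fits without 1 library. Leaving out ND + veh replicate 4 and HFD + veh replicate 6 together was chosen after seeing the data. The scripts were tested on simulated data.

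Genes named in full were the 3 members of each class with the highest mean FPKM, up to 4 called members per class and comparison with the largest change and a mean log2 CPM of at least 0, and Ugt1a1, Gstp1, Gsta4, Sult1e1 and Sult2a1, with up to 3 called genes per list and comparison. The Gsta1 copy Gm3776, Ugt1a7c, Gstm4, Nfe2l2, Nr1i3, Gstz1, Gstt1, Gstt2, Gstp2 and the within-library ratios were added after their values were seen. Members and lists were chosen with earlier results of these data known. Libraries of a group differed by at least 12.7 times sampling noise (chi-square per degree of freedom), so none was taken as a repeat. The samples were separate animals per the labels. Of the marker and gene lists, 1 hepatocyte marker and 1 mercapturate gene were not analysed here. Promoters are from RefSeq (59 of 67 members matched), and coding sequences from GENCODE M21. The result of 1 gene of these lists is not reported here.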

Additional observations from a re-analysis of the deposited data

Results flagged for a closer look

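Within groups, 10 of 90 sets of values had 1 library further from the rest than Dixon's 95% limit allows, where chance gives about 1 in 20, or 4.5. ND + veh animal 4 accounted for 4 of them. Its Gstm1 was 5737 CPM against 1141 to 2028 CPM in the other 7 animals, its Gstm3 was 1210 CPM against 39.5 to 187 CPM, its Sult1e1 was 1.20 CPM against 0.0381 to 0.279 CPM, and its summed Gst level was 17390 FPKM against 8192 to 11467 FPKM. The same animal had the lowest hepatocyte marker sum of its group (65018 CPM) and the highest sum of female-biased genes (650 CPM, against at most 158 CPM in the others). Their part in these values was not tested.

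HFD + eRapa animal 9 was lowest of its group for Gsta4 (20.1 CPM against 30.7 to 47.0 CPM), Gstm6 (30.2 CPM against 45.8 to 62.1 CPM) and Sult1a1 (121 CPM against 256 to 370 CPM). It was the lowest library of its group for 23 of the 46 members tested. HFD + eRapa animal 2 was highest for Ugt2b36 (915 CPM against 458 to 616 CPM), Ugt2b5 (1146 CPM against 651 to 831 CPM) and summed Ugt FPKM (2414 against 1798 to 2075), and was the highest library for 16 of the 46 members.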

How the results depend on the processing

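Counts of called members stayed within 1.5 times under most settings. Leaving out 1 library at a time gave 8 to 14 members for HFD + veh against ND + veh, 15 to 20 for HFD + eRapa against HFD + veh and 13 to 18 for HFD + eRapa against ND + veh. Adding a fold limit of 1 on the log2 scale gave 5, 11 and 10. For HFD + eRapa against HFD + veh the immune score as a covariate gave 9 (3 higher, 6 lower) and the endothelial, stellate and cholangiocyte score 7 (2 higher, 5 lower). These scores differed between the groups themselves. Without both ND + veh replicate 4 and HFD + veh replicate 6 the counts were 11, 17 and 15, of which 8, 16 and 13 were the same genes. FPKM gave more lower calls than counts: 5 of 10, 14 of 17 and 12 of 17 were lower with log2(FPKM + 0.1), against 3 of 10, 12 of 17 and 9 of 17.

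The summed class levels depended on the leading member. Without Mgst1 the log2 ratio of Gst was -0.53 in place of -0.16 between HFD + eRapa and HFD + veh, and -0.62 in place of -0.18 against ND + veh. Without Sult2a8 the Sult ratios were 0.0462 in place of -0.40 with diet, -0.082 in place of 0.78 with eRapa on the fatty diet and -0.0358 in place of 0.38 against ND + veh. Leaving out 1 library gave Gst ratios of -0.15 to 0.12, -0.24 to -0.04 and -0.23 to -0.04, and Sult ratios of -0.50 to -0.32, 0.70 to 0.88 and 0.32 to 0.42, in the order diet, eRapa on the fatty diet, and HFD + eRapa against ND + veh.

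Of 2975 values of named members under alternatives, 2761 kept direction and side of the threshold, 156 lost a call, 55 gained one and 3 reversed. The 3 were Ugt2b38 in HFD + eRapa against HFD + veh with FPKM, at -0.0606 with log2(FPKM + 0.1), with and without the filter, and -0.0595 with log2(FPKM + 1). The replicate numbers are shared by the groups, but same-numbered libraries deviated together with a mean correlation of 0.32, -0.24 and -0.20 in the 3 comparisons and correlated best with their own number in 3 of 7, 0 of 7 and 0 of 8 cases, so they were not taken as pairs. With the replicate block the counts were 11, 15 and 15. Sult1e1, under 2 CPM in all libraries, is limited by depth.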
